A study of Mus musculus with 40 samples.

Results

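The comparison described here set the RNA pulled down from mouse liver against the total small RNA of the same livers. Its members were chosen by the sample labels alone: 5 pull-down libraries (IP) and 5 input libraries of liver, 10 of the 40 libraries of the series, whose other 30 come from brown fat, muscle and hypothalamus. The mice carried the UPRT transgene of strain Tg(CAG-GFP,-Uprt)985Cdoe/J crossed to the Cre of strain Tg(Ucp1-cre)1Evdr/J, and all were male and 8 to 12 weeks old. Every mouse, for IP and input alike, received 4-thiouracil (4TU) by intraperitoneal injection, 4 times at intervals of 48 h and at 50 mg/kg. Liver IPs 1 to 5 and liver inputs 1 to 5 come from mice 3, 4, 5, 9 and 10, so that an IP and the input of the same number share a mouse. The labels name no group without 4TU or without Cre and give no genotype of single mice, so the level of RNA that is pulled down without labelling was not analysed here. All IPs were in sequencing pool 2 and all inputs in pool 1, and pool and library type therefore cannot be told apart.

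UPRT, uracil phosphoribosyltransferase, is a protozoan enzyme that joins a free uracil base to a sugar phosphate. Cells that carry it turn 4TU into a nucleotide, which RNA polymerases place in new RNA where uridine would stand. Here the transgene needs Cre to be expressed, and Cre is driven by Ucp1, the gene of the uncoupling protein that lets brown fat mitochondria make heat. Thiol groups in the RNA are then biotinylated and the RNA is collected on streptavidin. In liver the question of this design is which miRNAs appear in the pull-down of an organ where the Cre driver is not meant to be active. A miRNA is cut from a hairpin precursor, of which 1 arm (5p or 3p) usually becomes the guide strand in an Argonaute protein and the other, the passenger strand, is mostly degraded. The guide finds its targets through the seed, bases 2 to 8, and miRNAs with the same seed form a family.

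The sequences below are those of the families on which the results turn, from RefSeq (GRCm38.p6), written 5′ to 3′ with the seed in capitals. The let-7 family, abundant in differentiated tissues, comes first in the order of its change. Together with miR-423-5p and miR-125a-5p it was over-represented in the pull-down.
let-7a-5p: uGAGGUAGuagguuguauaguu
let-7d-5p: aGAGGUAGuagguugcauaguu
let-7e-5p: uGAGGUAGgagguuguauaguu
let-7c-5p: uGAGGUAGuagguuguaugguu
let-7b-5p: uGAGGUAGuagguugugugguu
let-7f-5p: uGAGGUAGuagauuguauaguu
miR-98-5p: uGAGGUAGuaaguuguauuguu
let-7g-5p: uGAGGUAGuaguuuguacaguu
let-7i-5p: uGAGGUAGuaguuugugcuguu
miR-423-5p: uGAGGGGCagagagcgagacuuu
miR-125a-5p: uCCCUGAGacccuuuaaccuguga
miR-125b-5p: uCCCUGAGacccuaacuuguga

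The next set was depleted from the pull-down: the miR-29 family, which acts on collagen and other matrix mRNAs, miR-16-5p, which acts on cell cycle mRNAs, 3 members of the miR-30 family, miR-101a-3p, which targets the histone methyltransferase Ezh2, and miR-340-5p.
miR-29a-3p: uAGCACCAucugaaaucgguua
miR-29b-3p: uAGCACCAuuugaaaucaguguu
miR-29c-3p: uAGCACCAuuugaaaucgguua
miR-16-5p: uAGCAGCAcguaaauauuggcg
miR-30a-5p: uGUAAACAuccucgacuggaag
miR-30c-5p: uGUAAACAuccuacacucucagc
miR-30e-5p: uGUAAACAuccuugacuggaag
miR-101a-3p: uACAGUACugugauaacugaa
miR-340-5p: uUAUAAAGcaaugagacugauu

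The deposited table holds 1894 mature miRNA entries, of which 680 had a count in a liver library. The IPs held 11928 to 444006 counts (median 187439) and the inputs 675738 to 1129986 (median 1020199). Liver IP 4 stands apart with 11928 counts, where 3 counts are already 251.5 CPM (the count scaled by the library's total), and results that rest on it are given without it too. The IPs detected 117 to 283 entries and the inputs 487 to 521. The reads carry no molecular identifiers, and every interval or bound covers counting error only; in bulk RNA fewer cells of a type and less RNA per cell cannot be told apart. Entries that share reads, such as copies and both strands of 1 locus, are uncertain, since the strand setting and the handling of multiply mapped reads are not stated in these sources.

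The liver identity of the inputs was plain: miR-122-5p, the miRNA that makes up most of the miRNA of hepatocytes and acts on cholesterol and fatty acid metabolism, led every library of both kinds. It took 76.8%, 82.0%, 76.0%, 72.0% and 74.9% of counts in liver IPs 1 to 5, against 43.2%, 37.5%, 37.2%, 43.3% and 38.3% in liver inputs 1 to 5. The groups do not overlap, and the means were 76.3% ± 3.64 in the IPs and 39.9% ± 3.09 in the inputs (SD, n = 5 each; exact permutation test, two-sided, p = 0.00794, the smallest that 5 against 5 allows; adjusted p = 0.00794 over 3 measures). The entry in the next place was let-7f-5p in every IP, at 5.31% to 9.06% of counts, and miR-21a-5p in every input, at 14.7% to 28.5%. The let-7 family as a whole took 15.3% to 20.7% of the IPs and 4.36% to 6.15% of the inputs.

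The pull-down was thus a less even library. The 10 most abundant entries took 95.2% ± 2.94 of the total in IPs and 86.3% ± 2.27 in inputs, and 10000 counts drawn from a library would hold 93.1 ± 13.7 entries in the IPs and 150.1 ± 9.86 in the inputs (SD, n = 5 each; exact permutation p = 0.00794 for either). The 15 most abundant entries of the IPs and the 15 of the inputs share 7. The inputs' list holds miR-101b-3p, miR-30a-5p, miR-26a-5p and miR-22-3p, which the IPs' list lacks, and the IPs' list holds let-7a-5p, let-7c-5p, let-7d-5p, miR-125a-5p and miR-423-5p, which the inputs' list lacks.

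**Figure D1:**
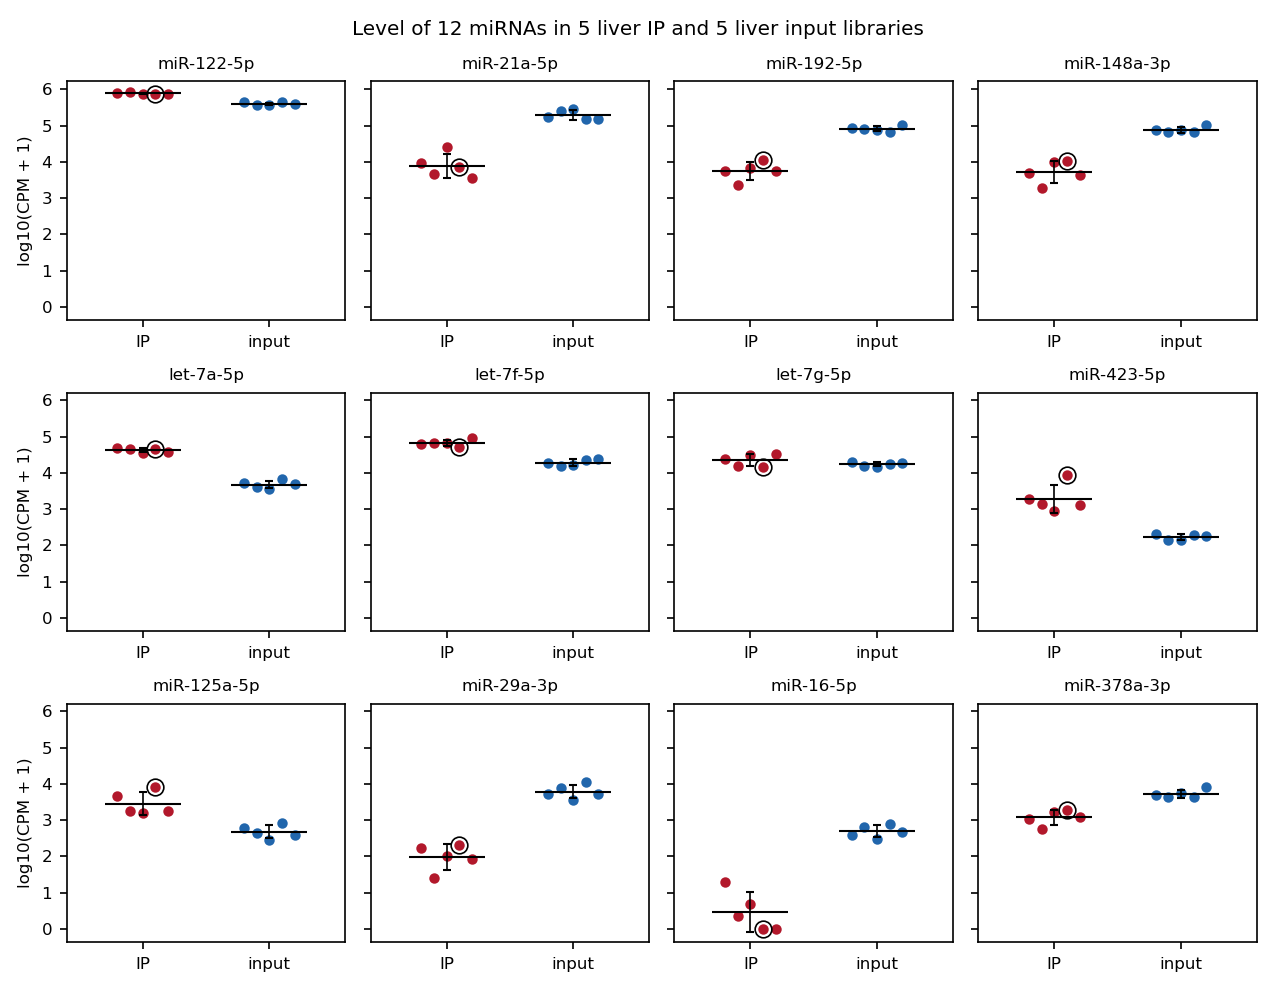
Levels of 12 miRNAs as log10(CPM + 1) in each of the 5 liver IP (left, red) and 5 liver input libraries (right, blue), with the mean and SD of these log values; the ringed point is liver IP 4. miR-122-5p leads both kinds of library; miR-122-5p, let-7a-5p, let-7f-5p, miR-423-5p and miR-125a-5p lie higher in all IPs than in any input, and miR-21a-5p, miR-192-5p, miR-148a-3p, miR-29a-3p, miR-16-5p and miR-378a-3p lie lower.

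Across entries, 200 had enough counts to be tested with edgeR (quasi-likelihood test, adjusted p under 0.05). Of these 149 were called (74.5%), 57 higher in the IP (28.5%) and 92 lower (46%), which is the background for every count below. Fold changes are log2 values on the scale of the test (trimmed mean of M values, TMM), and where miR-122-5p and let-7 take so much of a library the scaling matters. The median change of all 200 was -0.78 with TMM, -1.72 with the median of ratios (RLE) and -2.40 with total count, shifts of -0.93 and -1.61. Under all 3 scalings alike, 29 entries were higher (14.5%) and 92 lower (46%). RLE and total count move the changes down, so falls could hardly lose their calls and rises could. These numbers therefore do not rank the falls against the rises. In CPM, all 5 IPs lay above all 5 inputs for 22 of the 200 entries and below them for 120 of the 200. Lying below every input in CPM was thus common and by itself sets no single miRNA apart from the rest. Entries with enough counts in 1 group alone had their direction set by that, in falls as in rises. Leaving out any 1 of the 5 inputs also moved the scale: the median shift of the entries tested in both fits was -0.90 to -0.76, against -0.14 to 0.08 without any 1 IP. Values near 1 or 2 on the TMM scale are moved most in proportion by such shifts; list counts are given with RLE and total count where these differ by over 1.5 times, and changes are also given relative to the median of all 200, which does not depend on a shift common to all entries.

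**Figure D2:**
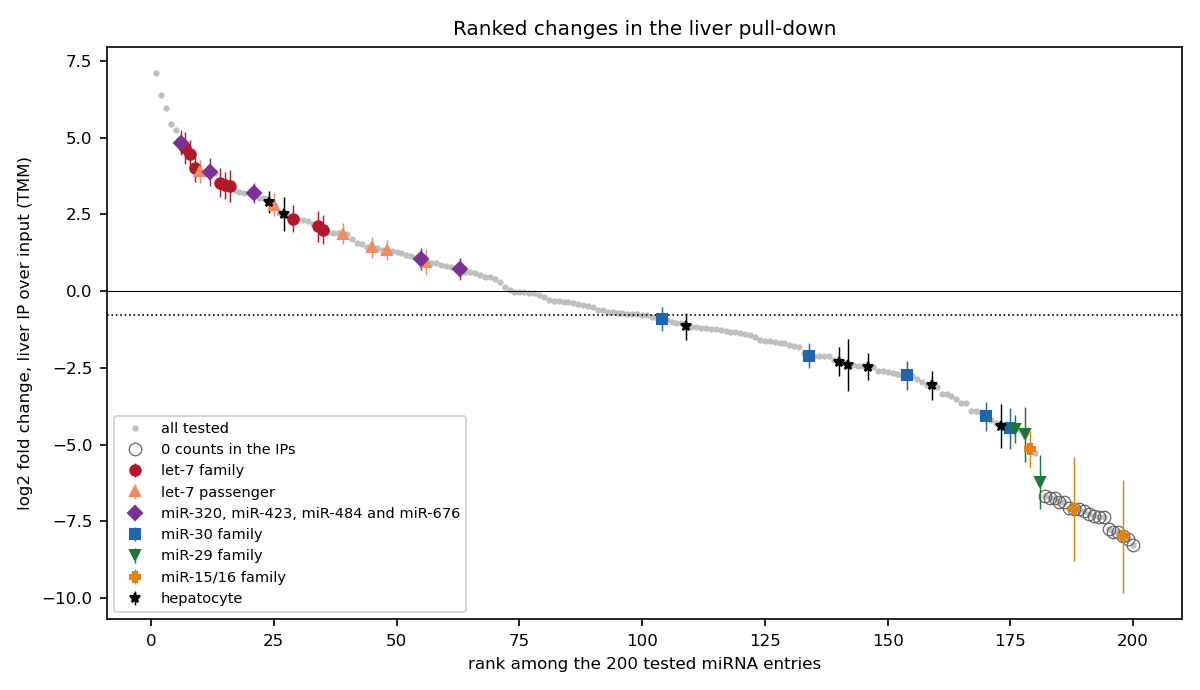
Log2 fold changes (liver IP over input, TMM scale) of the 200 tested entries in order of size, with families marked and their SE as bars. The dotted line is the median of all 200, at -0.78, and open circles at the right end are the 19 entries with 0 counts in the IPs, whose fitted values are no measure of size. The let-7 members fill places among the first 35, and the miR-29 and miR-15/16 members lie beyond place 175.

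Of the hepatocyte list, 8 of the 12 entries in the table were tested, 2 were higher and 6 lower, with a median change 1.57 below that of all entries; all 8 kept their calls under the 3 scalings. On the TMM scale miR-122-5p changed by 2.51 (log2, SE 0.55; edgeR adjusted p = 0.000228). With the mouse as a block the value was 2.28, and of the alternatives tried only the fit of all 40 libraries lost the call (2.27). Its passenger strand moved the other way. miR-122-3p had 27.1, 2.67, 52.8, 69.6 and 35.7 CPM in liver IPs 1 to 5, against 211, 226, 153.03, 382.99 and 233 CPM in inputs 1 to 5. Every IP lay below every input, and the change was -1.15 (SE 0.43, adjusted p = 0.0171); the call did not hold without liver IP 2 (-0.89, adjusted p = 0.059). Relative to the median of all entries miR-122-3p changed by -0.37.

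miR-192-5p and miR-194-5p share a cluster of liver and gut, whose hairpins Mir194-2 and Mir192 span 290 bp on chr19:6264643-6264932 (GRCm38, plus strand). miR-192-5p had 5504, 2309, 6736, 11031 and 5718 CPM in the IPs, against 83665, 79533, 75838, 67757 and 104490 CPM in the inputs. The fall of -2.46 (SE 0.45, adjusted p = 2.85e-05) has no overlap between the groups. miR-194-5p fell too (-3.07, SE 0.47), while the passenger strand miR-194-2-3p rose: it had 83.9, 82.7, 135, 293 and 184 CPM in the IPs and 47.0, 40.5, 50.7, 66.6 and 67.8 CPM in the inputs (2.90, SE 0.35, adjusted p = 6.1e-08). miR-148a-3p, which acts on lipid handling in hepatocytes, had 4844, 1908, 10021, 10841 and 4300 CPM in the IPs, against 73205, 67955, 75053, 66857 and 106245 CPM in the inputs (-2.30, SE 0.48, adjusted p = 0.000143). miR-21a-5p, a miRNA of tissue growth and injury that is not on this list, had 9107, 4522, 25134, 7178 and 3605 CPM in the IPs, against 176237, 253479, 285317, 146761 and 155822 CPM in the inputs (-2.78, SE 0.62, adjusted p = 0.000268). Of the 4 most abundant input miRNAs, only miR-122-5p was higher in the IP.

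All 9 measured guide strands of the let-7 family were called higher, with a median 4.23 above that of all entries. let-7a-5p had 46961, 43945, 35265, 46331 and 37184 CPM in liver IPs 1 to 5, against 5093, 3990, 3571, 6563 and 4971 CPM in inputs 1 to 5. The change was 4.66 (SE 0.52, adjusted p = 2.07e-08), and liver IP 4 lay within the other 4. let-7d-5p had 11607, 5981, 6398, 8453 and 9578 CPM in the IPs, against 1150.5, 920.5, 750.5, 1734 and 934 CPM in inputs 1 to 5 (4.45, SE 0.49, adjusted p = 1.42e-08). let-7f-5p, the most abundant member, had 63178, 65698, 68261, 53081 and 90622 CPM in the IPs and 19104, 15764, 16051, 23163 and 23501 CPM in the inputs (3.43, SE 0.53, adjusted p = 2.95e-06).

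Within the family the rise was unequal. let-7e-5p (4.00, SE 0.46), let-7c-5p (3.53, SE 0.48) and let-7b-5p (3.44, SE 0.43) lay near let-7f-5p, and none of their IPs overlapped an input. let-7g-5p, let-7i-5p and miR-98-5p had less, with 2.11 (SE 0.50), 2.004 (SE 0.47) and 2.36 (SE 0.45). For let-7g-5p the IPs held 24400, 15621, 31568, 14881 and 33397 CPM and the inputs 19505, 15689, 14259, 17743 and 18504 CPM, which overlap. Without 1 input let-7g-5p had 1.19 to 1.33 and let-7i-5p 1.16 to 1.27. These last 3 members lost their calls with total count as the scaling (0.49, 0.44 and 0.76), while the other 6 were called under all 3 scalings. Against let-7a-5p, counted from the 5′ end, let-7g-5p carries G12U and U18C, let-7i-5p G12U, A17G, U18C and A19U, and miR-98-5p G11A and A19U. let-7f-5p carries G12A, let-7e-5p U9G, let-7c-5p A19G, let-7b-5p A17G and A19G, and let-7d-5p U1A and U16C, so the seed is the same in all 9.

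The passenger strands of let-7 hairpins were called higher in 6 of 6 tested, with a median 2.43 above that of all entries, but only 3 with RLE, 2 with total count and 2 under all 3 scalings. let-7b-3p was 1 of those 2: it had 140.6, 164, 111, 167.7 and 118 CPM in the IPs, against 31.3, 18.3, 17.5, 44.1 and 31.6 CPM in the inputs (3.90, SE 0.38, adjusted p = 3.46e-09).

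Another list held miR-320, miR-423, miR-484 and miR-676; miR-320-3p is known for being made without the nuclear enzyme Drosha. Of its 5 entries 4 were higher and 0 lower, with a median 3.97 above that of all entries, and 3 were higher under all scalings. miR-423-5p, from the hairpin Mir423 at chr11:77078064-77078172 (GRCm38, minus strand), had 1905, 1388, 863, 8467 and 1321 CPM in liver IPs 1 to 5, against 202, 140.05, 139.9, 192.01 and 175 CPM in inputs 1 to 5. The shallow liver IP 4 is the highest by far, and without it the change was 4.72, against 4.83 with it (SE 0.41, adjusted p = 3.46e-10). miR-320-3p had 479, 455.3, 414, 272 and 321 CPM in the IPs and 123, 67.0, 81.2, 98.7 and 45.3 CPM in the inputs (3.88, SE 0.47, adjusted p = 7.15e-08). miR-676-3p had 3.19 (SE 0.32), with 461 CPM in liver IP 4 and at most 135 in the other IPs, against 32.1 to 51.4 CPM in the inputs.

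miR-125a-5p and miR-125b-5p share a seed and act on differentiation and stress mRNAs, but they behaved unequally. miR-125a-5p had 4617, 1780, 1585, 7922 and 1794 CPM in the IPs, against 593, 454, 284, 826 and 391 CPM in the inputs (3.89, SE 0.42, adjusted p = 1.25e-08). All IPs lay above all inputs. miR-125b-5p had 1598, 590, 826, 2276 and 970 CPM in the IPs, within the range of 719 to 2073 CPM in the inputs but for IPs 2 and 4. Its change of 1.27 (SE 0.37, adjusted p = 0.00329) was -0.06 with total count and lost its call without 4 of the 10 libraries. Of the miR-125 and miR-99/100 list, 2 of 5 were higher and 1 lower with TMM, 1 higher and 2 lower with RLE, and 1 higher and 3 lower with total count, so its balance turns with the scaling.

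The entries numbered 5000 and above, late additions to the miRNA catalogue, are 785 in the table, and 5 of them were tested. Of the 785, 746 had 0 counts in the IPs and 709 had 0 in the inputs. All 5 tested entries were higher under all 3 scalings. However, miR-5119, miR-5126 and miR-6538 had at most 3.76, 6.87 and 4.19 CPM in an input, below the filter's level. These 3 were tested only because of their IPs, so their direction was set by the filter and is no support. Most inputs of miR-6236 lay below that level too, so it also passed through its IPs and its direction is no support. miR-5099 had 499.02, 491, 701, 1415 and 1638 CPM in the IPs, against 245, 340, 241, 189 and 311 CPM in the inputs (3.22, SE 0.45, adjusted p = 6.52e-07). miR-6236 had 34.8, 166, 76.2, 3912 and 291 CPM in the IPs and 18.6, 28.03, 16.1, 17.6 and 16.1 CPM in the inputs, so that liver IP 4 held most of its level; without that library its change was 4.67 and not 5.44. miR-5119, with 70 counts over the IPs and 10 over the inputs, had 2140 CPM in liver IP 4 and 32.1 to 68.3 CPM in the others, against 0.959 to 3.76 CPM in the inputs (7.10, SE 0.65; 6.16 without liver IP 4).

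Among the falls, the miR-29 family was lower in 3 of 3, with a median 3.88 below that of all entries. miR-29a-3p, from Mir29a at chr6:31062660-31062747 (GRCm38, minus strand), had 172, 24.9, 102, 209.6 and 84.3 CPM in liver IPs 1 to 5, against 5294, 7672, 3579, 10900 and 5265 CPM in inputs 1 to 5. Every IP lay far below every input. The change was -4.49 (SE 0.47, adjusted p = 6.88e-09). For miR-29b-3p all IPs together held 1 count and all inputs 1288, which is 79.0-fold lower on the TMM scale with a 95% interval of 14.2 to 3124. For miR-29c-3p these were 1 and 432, which is 26.5-fold lower (4.73 to 1050).

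The miR-30 family, which acts on mRNAs of fibrosis and cell fate, fell in 5 of 5, with a median 1.96 below that of all entries, but by very different amounts. miR-30e-5p had 27.5, 8.91, 52.2, 27.7 and 27.3 CPM in the IPs, against 1289, 1621, 1469, 2223 and 2023 CPM in the inputs (-4.07, SE 0.47, adjusted p = 3.59e-08). miR-30a-5p had 1060, 267, 1693, 2138 and 537 CPM in the IPs, against 16786, 15242, 16201, 19708 and 23130 CPM in the inputs (-2.74, SE 0.47, adjusted p = 1.13e-05). miR-30c-5p had -2.10 (SE 0.41). miR-30d-5p had 1113, 828, 1592, 3332 and 872 CPM in the IPs, against 6316, 5935, 5964, 6762 and 8267 CPM in the inputs. Its change of -0.91 (SE 0.38, adjusted p = 0.0325) lay 0.13 below the median of all entries and lost its call without any 1 of 3 libraries. For miR-30b-5p the IPs held 2 counts and the inputs 726, which is 22.3-fold lower with a 95% interval of 6.14 to 184.

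miR-16-5p had 18.1, 1.33, 3.94, 0 and 0 CPM in the IPs, against 387, 658, 304, 772 and 475 CPM in the inputs (-5.15, SE 0.60, adjusted p = 4.17e-08). Its relatives with the same seed had no whole count left: miR-15a-5p 0 in the IPs and 298 in the inputs, at least 6.10-fold lower, and miR-195a-5p 0 and 163, at least 3.33-fold lower (bounds at 3 counts over the group, TMM scale; 20.4 and 11.1 with total count). The miR-15/16 list was lower in 3 of 3, with a median of -1.82 relative to all entries when the bounds are used. miR-15a-5p and miR-195a-5p passed the filter through their inputs alone, so their direction is no support. miR-101a-3p had 174, 48.7, 265, 209.6 and 34.9 CPM in the IPs, against 12235, 5266, 6737, 8905 and 6441 CPM in the inputs (-4.29, SE 0.54, adjusted p = 1.29e-07), and miR-101b-3p fell too (-2.85, SE 0.51). miR-340-5p had 4.54, 0, 11.3, 0 and 5.63 CPM in the IPs and 396, 453, 443, 448 and 538 CPM in the inputs (-4.53, SE 0.55, adjusted p = 7.57e-08). miR-26a-5p and miR-22-3p, abundant growth-restraining miRNAs, had -3.07 (SE 0.42) and -2.49 (SE 0.43).

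The clusters around miR-17/92 and miR-106b/25, which promote proliferation, were split: 6 of 8 were lower and 2 higher, with 1 higher under RLE and 0 under total count. miR-17-5p held 7 counts over the IPs and 659 over the inputs (-2.63, SE 0.54, adjusted p = 0.000123) and miR-19b-3p 4 and 789 (-3.64, SE 0.61, adjusted p = 9.2e-06). Without liver IP 3, which held most of these few counts, the fitted values were -4.57 and -9.51, and the calls held. miR-92a-3p, cut from the same transcript as both, had 1261, 824, 1304, 4094 and 1019 CPM in the IPs, against 1061, 816, 778, 1686 and 1369 CPM in the inputs. The groups overlap, and the change of 1.69 (SE 0.36, adjusted p = 0.000182) was 0.50 with total count (adjusted p = 0.316).

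Brown fat is the tissue that the Ucp1 driver addresses, so its miRNAs were listed from general knowledge and from the inputs of the other tissues. Of the 16 tested entries of the first list 3 were higher and 8 lower, with a median 0.29 below that of all entries, with RLE 1 was higher and 10 lower, and with total count 0 were higher and 12 lower. Its summed level was 2330 to 9479 CPM in the IPs and 21090 to 34728 CPM in the inputs. miR-378a-3p, which is encoded within the mitochondrial regulator Ppargc1b, had 1106, 563, 1699, 1928 and 1202 CPM in liver IPs 1 to 5, against 4958, 4210, 5668, 4423 and 7995 CPM in inputs 1 to 5. Every IP lay below every input in CPM, yet on the TMM scale its change was -0.69 (SE 0.41, adjusted p = 0.127) and within 0.09 of the median of all entries. It was called lower with RLE (-1.57) and total count (-2.10). miR-455-5p, which promotes brown adipocyte differentiation, held 2 counts over the IPs and 1281 over the inputs, which is 39.3-fold lower with an interval of 10.9 to 325, and miR-203-3p, an epithelial miRNA, had -1.78 (SE 0.45, adjusted p = 0.000886). The 3 higher members were miR-92a-3p, miR-328-3p and miR-455-3p, the other arm of the miR-455 hairpin. miR-455-3p had 1.52 (SE 0.39, edgeR adjusted p = 0.00103) and miR-328-3p 1.41 (SE 0.34, edgeR adjusted p = 0.000577). Neither kept its call with RLE or with total count.

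The second list, 45 miRNAs higher in brown fat inputs than in muscle and in hypothalamus inputs, was built without any liver library. Of these, 25 were tested in liver, 6 were higher and 14 lower, with a median 0.50 below that of all entries; with total count 2 were higher and 18 lower, and under all 3 scalings 2 and 14. Of 40 tested entries that were high in hypothalamus inputs 7 were higher and 20 lower, with a median 0.42 below that of all entries; 3 were higher with RLE, and 1 was higher and 32 lower with total count. Of 11 that were high in muscle inputs 6 were higher and 2 lower with TMM, and 6 higher and 4 lower with RLE and with total count. These 6 are miR-1a-3p with miR-1b-5p, which share reads, and the entries of miR-486, which share theirs. They are therefore not independent, and liver IP 4 is the highest IP for each. The miR-486 entries were tested mainly because of their IPs, so their direction is no support. Among the falls of the brown fat list, the entries of miR-126a and miR-126b share reads too.

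Markers of other tissues and cells moved in both directions. Of 3 tested muscle miRNAs 2 were higher: miR-1a-3p had 1274, 862, 430, 15719 and 602 CPM in the IPs, against 890, 706, 836, 1113 and 621 CPM in the inputs, and miR-206-3p 60.5, 28.01, 20.1, 559 and 16.9 CPM in the IPs, against 10.8, 7.23, 5.22, 14.3 and 5.53 CPM in the inputs. Liver IP 4 is the highest for both, and without it the changes were 1.61 and 3.45, against 2.32 and 3.84 with it. In every input miR-206-3p lay below the filter's level, so it was tested because of its IPs and its direction is no support. The summed muscle list had a lowest value of 452, a median of 895 and a highest of 16320 CPM, in liver IP 4, over the IPs, against 656, 888 and 1187 CPM over the inputs, and 6 of its 9 entries had 0 counts in the IPs. miR-133a-3p, of the same transcripts as miR-1a, held 1 count over the IPs and 197 over the inputs. The part of muscle RNA in this result was not tested.

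All 4 tested red blood cell entries were higher, but they are the entries of miR-486, which share their reads and are also high in muscle. Most inputs of each lay below the filter's level, so they were tested mainly because of their IPs and their direction is no support. miR-486a-5p had 76.0, 37.6, 13.1, 262 and 43.9 CPM in the IPs and 17.7, 11.7, 4.66, 14.5 and 20.6 CPM in the inputs (3.20, SE 0.44, adjusted p = 4.45e-07). The other 3 entries on this list were at 0 in all IPs. The endothelial miR-126a-3p had 303, 92.03, 426, 335 and 227 CPM in the IPs, against 4387, 4754, 3871, 6119 and 4586 CPM in the inputs (-2.59, SE 0.43, adjusted p = 9.67e-06), and 2 of 2 endothelial entries fell. Of the list of biliary and other epithelium 2 of 2 tested fell, with 7 counts of miR-200a-3p in the IPs and 1698 in the inputs (-3.91, SE 0.54). Of the mesenchymal list 3 of 6 fell and 0 rose with TMM, and 6 of 6 fell with RLE and with total count. miR-143-3p, of smooth muscle and stellate cells, had 1493, 1098, 2274, 6728 and 1881 CPM in the IPs, against 9011, 8418, 7327, 10170 and 13357 CPM in the inputs (-0.78, SE 0.38, adjusted p = 0.0639). It was called lower with RLE (-1.54) and total count (-1.90), and in 7 of 10 fits without 1 library.

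Of the leukocyte list 2 of 4 fell and 0 rose with TMM, 4 of 4 fell with RLE and with total count, and 1 fell without liver IP 4. There were 0 counts of miR-142a-3p in the IPs and 190 in the inputs, at least 3.89-fold lower (bound at 3 counts, TMM scale). Of the brain list 4 of 7 fell and 0 rose with TMM, and 7 of 7 fell with RLE and with total count. miR-7a-5p had 839, 876, 1169, 1659 and 2109 CPM in the IPs, against 4580, 5326, 4591, 6681 and 4565 CPM in the inputs (-0.46, SE 0.41, adjusted p = 0.304). Every IP lay below every input in CPM, and the entry was called lower with RLE (-1.36), total count (-1.97) and without any 1 input. Of the imprinted Dlk1-Dio3 cluster 3 of 12 were higher and 6 lower, with a median within 0.03 of all entries; 1 was higher with RLE and 0 with total count.

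**Figure D3:**
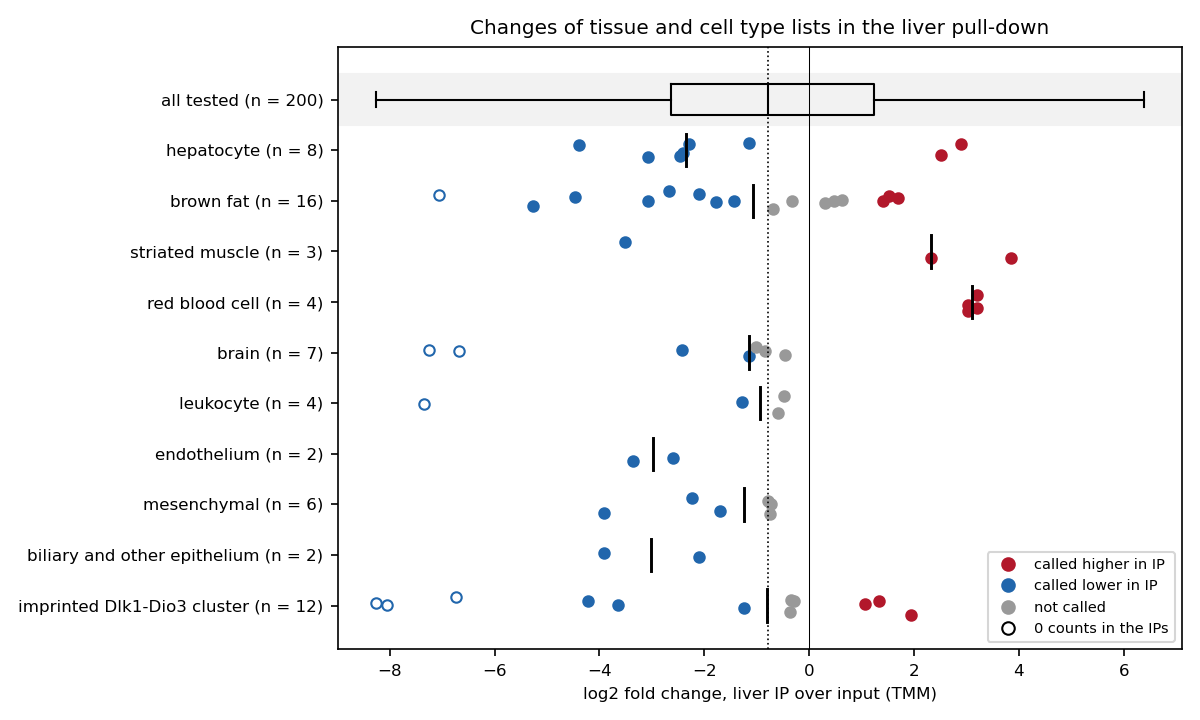
Log2 fold changes (liver IP over input, TMM scale) of the tested members of 10 lists, 1 point a member, with the list's median as a bar and all 200 tested entries as a box above. The medians of striated muscle (3 members) and red blood cell (4 members) lie right of 0 and those of the other 8 lists left of it; open points had 0 counts in the IPs.

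Ratios between related miRNAs within a library do not depend on the scaling between libraries. A total of 17 pairs had enough counts, and 12 differed between IP and input (exact permutation test, two-sided, p = 0.00794 for each, adjusted p = 0.0112 over 17 pairs). In these 12 the groups do not overlap. With the mouse as a block the smallest p that 5 sign flips allow is 0.0625, so that fit calls 0 pairs.

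Arms of 1 hairpin were separated in each of the 4 arm pairs. miR-423-5p to miR-423-3p had a log2 ratio of 4.26, 3.62, 2.05, 4.08 and 2.81 in liver IPs 1 to 5, against -0.77, -1.09, -0.70, -0.84 and -0.99 in inputs 1 to 5. The 3p arm is the more abundant in every input and the 5p arm in every IP, a difference of 4.24. For miR-30a the guide (5p) to passenger (3p) ratio was 1.61, -0.21, 1.57, 1.504 and 0.31 in the IPs, against 4.75, 4.84, 4.79, 4.59 and 4.36 in the inputs, a difference of -3.71 in the other direction. miR-122-5p to miR-122-3p had 14.50 ± 1.69 in the IPs and 10.75 ± 0.41 in the inputs (SD, n = 5 each), and let-7d-5p to let-7d-3p 5.04 ± 1.08 in the IPs and 2.62 ± 0.16 in the inputs. In IP 2, miR-122-3p was at 2.67 CPM, less than 1 whole count, so that ratio rests on the 0.5 added to each count.

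Neighbours in 1 transcript were separated as well. Mir99b, Mirlet7e and Mir125a lie within 692 bp on chr17:17830188-17830879 (GRCm38, plus strand). miR-99b-5p to let-7e-5p had a log2 ratio of -0.54, -1.85, -0.80, -0.17 and -1.03 in the IPs, against 2.49, 2.69, 2.78, 1.95 and 3.28 in the inputs, so that miR-99b-5p exceeds let-7e-5p in every input and in no IP. miR-125a-5p to let-7e-5p, from the same cluster, had 1.84 ± 0.85 in the IPs and 1.75 ± 0.21 in the inputs (exact permutation p = 0.833, n = 5 each), a difference of 0.09. Mir17 and Mir92-1 lie within 836 bp on chr14:115043671-115044506 (plus strand); miR-92a-3p has a further hairpin on another chromosome. miR-92a-3p to miR-17-5p had 7.13 ± 0.71 in the IPs and 2.94 ± 0.32 in the inputs. Most of the few IP counts of miR-17-5p were in liver IP 3, so the ratios of the other IPs rest largely on the 0.5 added. For Mir23b and Mir27b, which lie within 301 bp on chr13:63300484-63300784 (plus strand), miR-23b-3p to miR-27b-3p had -2.43 ± 0.55 in the IPs and -4.07 ± 0.50 in the inputs. In the IP with the fewest, this pair held 8 counts together.

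Members of 1 seed family were separated in 5 of 7 pairs. let-7a-5p to let-7f-5p, which differ by G12A and have hairpins within 2261 bp together with Mirlet7d on chr13:48536012-48538272 (minus strand), had -0.43, -0.58, -0.95, -0.20 and -1.29 in the IPs, against -1.91, -1.98, -2.17, -1.82 and -2.24 in the inputs. The differences were 1.33 for this pair, 2.56 for let-7a-5p to miR-98-5p, 3.37 for miR-30d-5p to miR-30e-5p, 2.64 for miR-125a-5p to miR-125b-5p and -1.53 for miR-99a-5p to miR-100-5p. In the IP with the fewest, miR-99a-5p and miR-100-5p held 7 counts together. The family pairs miR-10a-5p to miR-10b-5p (-0.62, exact permutation p = 0.31) and miR-148a-3p to miR-152-3p (-1.18, adjusted p = 0.0519, exact permutation) missed the threshold, as did miR-192-5p to miR-194-5p (0.85) and miR-143-3p to miR-145a-5p (1.03), both at adjusted p = 0.054.

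**Figure D4:**
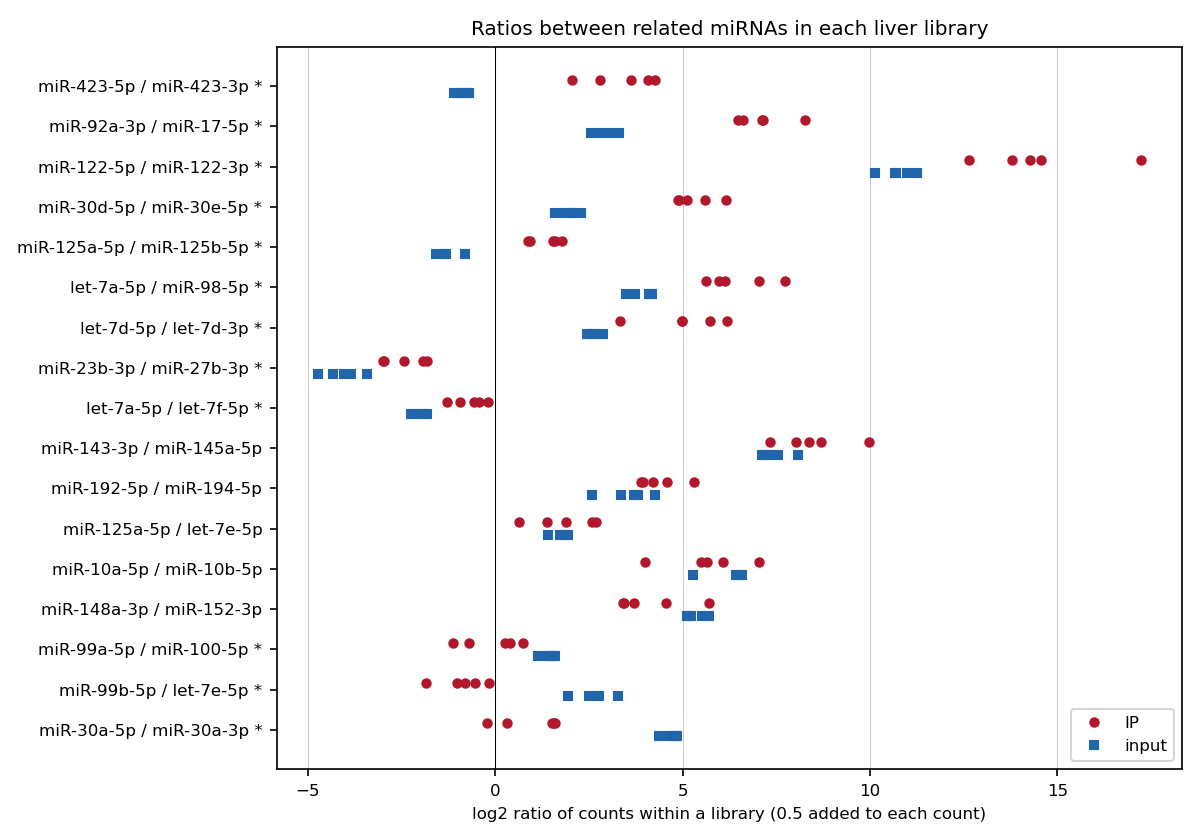
Log2 ratio of counts (0.5 added) within each library for 17 pairs of related miRNAs, with IPs as red circles above and inputs as blue squares below; an asterisk marks adjusted p under 0.05. In the 12 marked pairs the 5 IPs and 5 inputs do not overlap.

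Since 4TU stands in for uracil, the base content of each mature sequence was set beside its change for the 168 of 200 tested entries that matched a RefSeq sequence. These correlations are across miRNAs that share libraries and families, so they are descriptions without a test. The change was nearly unrelated to the number of uracils (Spearman 0.15; 0.06 without the let-7 family; 0.04 per seed). It fell with the number of adenines (Spearman -0.52; -0.53 without let-7; -0.51 with 1 value per seed), and the 5 mice gave -0.44 ± 0.03 (SD) when each IP was set against its own input. It rose with the share of G and C (0.40; 0.52 without let-7) and had no relation to length (0.00).

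The 34 miRNAs with up to 3 adenines had a median change of 1.27, with 19 higher and 4 lower. Among them miR-5119, miR-5126, miR-6538, miR-6236 and miR-23b-5p were tested because of their IPs, so their direction is no support. Entries with 0 counts in the IPs, tested because of their inputs, lie in the groups with more adenines. With these set at their bounds the Spearman value over all 168 was -0.50, and without both kinds it was not computed. The 55 with 4 or 5 had a median of -0.37, with 18 higher and 20 lower. The 59 with 6 or 7 had -2.30, with 7 higher and 42 lower. The 20 with 8 or more had -3.79, with 1 higher and 14 lower; with the 7 that had 0 counts in the IPs set at their bounds this median was -1.67, close to the -1.78 that the 59 then have, so the order of these last groups depends on such bounds. The depleted sequences printed above hold 7 adenines in the miR-29 and miR-30 families and in miR-16-5p, 8 in miR-101a-3p and 9 in miR-340-5p. The let-7 guides hold 3 to 6. Adenine content did not order the let-7 family itself: let-7i-5p, with 3, had the smallest change, and let-7d-5p, with 6, one of the largest. The same correlation was -0.46 over 266 miRNAs in brown fat, -0.45 over 231 in muscle and -0.44 over 238 in hypothalamus, and is not particular to liver.

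**Figure D5:**
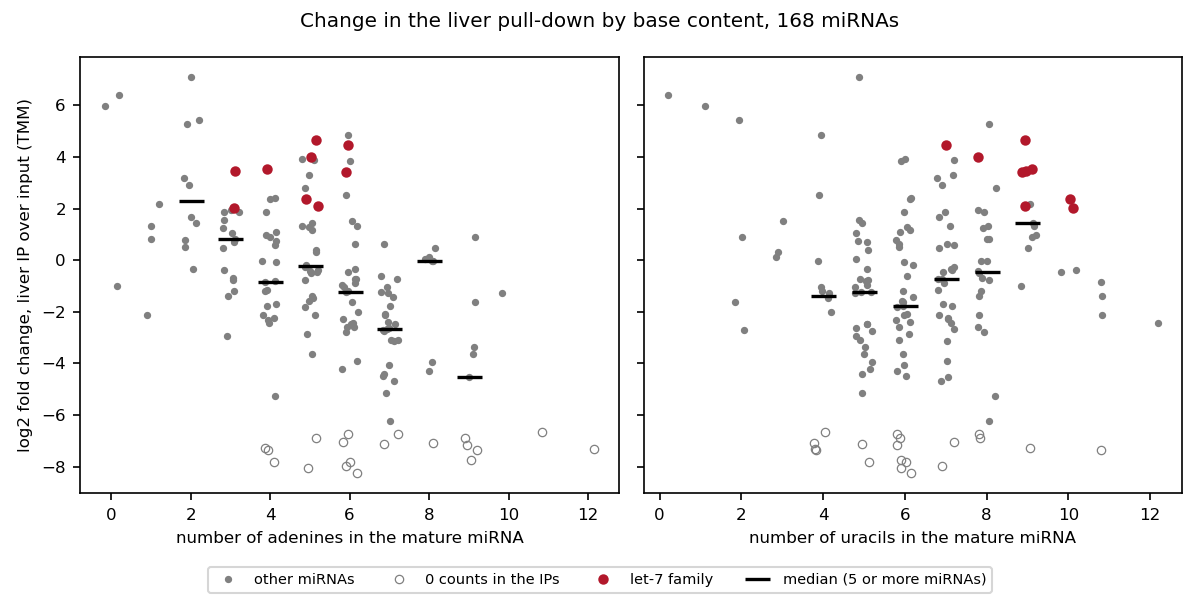
Log2 fold change (liver IP over input, TMM scale) of 168 miRNAs against the number of adenines (left) and uracils (right) in the mature sequence, with a small horizontal offset for legibility. Bars are medians at each number with 5 or more miRNAs; the medians are lower at 6 and 7 adenines than at 2 and 3, with the order broken at 5 and at 8, and the let-7 family, in red, has 7 to 10 uracils.

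The liver change was also set against the changes in the other tissues, each with its own inputs. IP and input differed for 80% of entries tested in brown fat, 85.1% in muscle and 75.5% in hypothalamus. Against the mean of the other tissues, over all 40 libraries, 0 entries differed (0%) by edgeR, 49 had an unadjusted p under 0.05, and the smallest adjusted p was 0.112; with RLE 10 were higher. Liver with each tissue alone, over 20 libraries, gave 26 calls of 308 (8.44%) for brown fat, 8 of 255 (3.14%) for muscle and 83 of 324 (25.6%) for hypothalamus. The median of these differences itself lay at -0.85, -0.18 and -1.72 and moved with the scaling to -0.40, 0.24 and -0.14 with RLE, so the following are among the calls that held under all 3 scalings: 1 higher and 3 lower in liver against brown fat, 0 and 4 against muscle, 3 and 3 against hypothalamus.

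Against brown fat, the difference for miR-378a-3p was -2.33 (SE 0.53, adjusted p = 0.0125), or -1.91 with RLE. Its change in the separate fits was -0.69 in liver, where it was not called, and 1.23 in brown fat. The call was lost without liver input 3 or 5 or brown fat IP 4 (-2.46 to -1.72 over 20 fits that leave out 1 library, largest adjusted p 0.0631). miR-379-5p, of the imprinted Dlk1-Dio3 cluster, had 31.8, 24.0, 37.4, 0 and 31.3 CPM in the liver IPs, against 251, 278, 211, 163 and 285 CPM in the liver inputs. Its difference of -2.64 (SE 0.49, adjusted p = 0.00294), with -1.25 in liver and 0.98 in brown fat, held without any of the 20 libraries. miR-455-5p (-4.04, SE 0.90) and miR-6236 (3.55, SE 0.86) lost their calls without any 1 of 7 and of 5 libraries, liver IP 4 among them for both. In the liver fit miR-6236 had passed the filter through its IPs, so its difference is no support for a rise particular to liver.

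Against hypothalamus, 1 of the held differences was that of miR-146a-5p, which dampens inflammatory signalling. It had 154.998, 154.7, 136.4, 796 and 256 CPM in the liver IPs, against 708, 744, 445, 1164 and 1251 CPM in the liver inputs. The difference was -4.33 (SE 0.59, adjusted p = 5.03e-05), or -2.77 with RLE and -3.32 with total count, and the call held without any of the 20 libraries. In the separate fits the change was 2.24 in hypothalamus and -0.47 in liver, where it was not called with TMM and was called lower with RLE (-1.29) and total count (-1.85). Against muscle, let-7e-5p and let-7b-5p rose less in liver, with differences of -2.29 (SE 0.49, adjusted p = 0.00432) and -1.91 (SE 0.51, adjusted p = 0.0304). Their changes in the separate fits were 4.00 and 3.44 in liver and 5.72 and 4.83 in muscle. These calls were lost without any 1 of 6 libraries for let-7e-5p and of 15 for let-7b-5p.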

How the data were processed

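Small RNA libraries of pull-down and input RNA were sequenced; per the submitters' processing notes the tools were fastp, STAR and featureCounts and the build mm10, with versions, annotation, strand and treatment of multiply mapped reads not given in the sources used here. The table deposited by the authors holds estimated counts per mature miRNA, not normalized and mostly not whole; of these 19.1% of the positive liver values were whole within 0.001; rounding them for the count tests changed a liver total by at most 0.127%. All its columns were matched to samples. Liver totals ran from 11928 to 1129986 counts.

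Here, the 5 IPs and 5 inputs of liver were compared with edgeR 4.0.16 (R 4.3.3; filterByExpr, TMM, quasi-likelihood test, two-sided, Benjamini-Hochberg adjusted p under 0.05 over all tested entries), without a block. Differences between tissues were contrasts over 40 or 20 libraries. CPM used the total count. Ratios within a library (0.5 added; at least 50 counts for the pair in 4 libraries of each group) and library shares had exact permutation tests over samples (scipy 1.17.1, Python 3.11.15), adjusted over the pairs or measures. Fold bounds used 3 counts over the group and intervals were exact at 95%. Alternatives used RLE, TMMwsp and total count scaling, other filters, DESeq2 1.42.0, limma-voom (limma 3.58.1), shared entries counted once, all 40 libraries, single libraries left out and the mouse as a block. The step was tested on simulated data for this comparison (221 entries): it called 13 of 25 entries changed by 1 (log2), 30 of 30 changed by 2 and 2 of 166 unchanged. The simulated counts had the input proportions, a fixed dispersion, changes up and down alike and no change of miR-122-5p. They leave out the shift in composition of the real libraries, so they give no rate of false calls for these data.

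In liver, IP and input of the same number come from the same mouse, per the labels. Their deviations from the group means correlated at 0.05, 0.03, 0.15, 0.16 and -0.01. The labels do not say whether a library is a separate pull-down, and p-values measure the spread between these samples. Members and lists were chosen with earlier results of these data known. Named entries are the 12 called entries with the largest change in each direction at 100 CPM or more, the 15 most abundant in each group, list and pair members, and differences between tissues chosen among those called under 3 scalings; not all are printed. Sequences are from RefSeq (GRCm38.p6) and hairpin positions from GENCODE (GRCm38); 168 of 200 tested entries (84%) matched a sequence.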

Additional observations from a re-analysis of the deposited data

Results flagged for a closer look

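Among 154 groups of 5 libraries checked, 27 had 1 library far from the other 4, where chance gives about 1 in 20. Liver IP 4, the library with the lowest depth, was that library in 13 of the 27.

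In liver IP 4, miR-1a-3p had 15719 CPM (next IP 1274), miR-206-3p 559 (next 60.5), miR-133a-3p 41.9 (next 5.34) and miR-486a-5p 262 (next 76.0). miR-6236 had 3912 CPM there (next 291), miR-5119 2140 (next 68.3), miR-423-5p 8467 (next 1905) and miR-676-3p 461 (next 135). miR-143-3p had 6728 CPM (next 2274), miR-92a-3p 4094 (next 1304), miR-146a-5p 796 (next 256) and miR-30b-5p 41.9 (next 3.94). In this library 41.9 CPM, for miR-133a-3p and miR-30b-5p, is 0.5 of a count. The 10 most abundant entries took 90.1% of its counts, against 95.9% in the next lowest IP.

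Liver IP 3 was high for miR-21a-5p, with 25134 CPM (next 9107), and held the single traces of miR-455-5p (4.05 CPM), miR-29c-3p (1.51), miR-195a-5p (1.13) and miR-142a-3p (0.563), which were at 0 in the other IPs. Liver IP 5 was high for let-7i-5p, with 12476 CPM (next 6457), and for miR-29b-3p, with 4.81 CPM (others 0). Liver IP 1 was high for miR-16-5p, with 18.1 CPM (next 3.94).

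Of the inputs, number 4 was high for miR-29b-3p with 724 CPM (next 265), miR-30b-5p with 284 (next 160.2) and miR-17-5p with 220.5 (next 137.6). Input 5 was high for miR-148a-3p with 106245 CPM (next 75053) and input 2 for miR-6236 with 28.03 (next 18.6). Input 1 was low for the log2 ratio of miR-10a-5p to miR-10b-5p, at 5.28 (next 6.42).

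The change in liver differed from that in another tissue for 8 named miRNAs (edgeR, adjusted over all entries tested). Liver minus brown fat was -2.33 for miR-378a-3p, -2.64 for miR-379-5p, -4.04 for miR-455-5p and 3.55 for miR-6236. In liver, miR-6236 had passed the filter through its IPs. Liver minus muscle was -1.91 for let-7b-5p and -2.29 for let-7e-5p. Liver minus hypothalamus was -4.33 for miR-146a-5p and 4.41 for miR-1a-3p (adjusted p = 0.0374); the last was lost without any 1 of 12 libraries, was -0.41 without hypothalamus input 4, and was 0.37 with the mouse as a block (adjusted p = 0.808), which ends the call.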

How the results depend on the processing

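The count of higher entries, 57, was 29 with total count scaling (also the number called alike under 3 scalings), 37 with shared entries counted once and 38 to 61 without 1 library. The count of lower entries, 92, was 166 with no filter and 149 at a minimum mean of 10 CPM, where more entries are tested, and 92 to 117 without 1 library. With the mouse as a replicate block 54 were higher and 94 lower, and no named miRNA changed its side of the threshold. Of 57 named miRNAs 44 kept their side under every alternative run and 50 under every fit without 1 library. miR-125b-5p reversed with total count (-0.059); the cause was not tested.

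Against the mean of the other tissues, where 0 were called, RLE gave 10 higher, total count 1 higher and 18 lower, and no filter 3 higher. Against brown fat alone 1 was higher and 25 lower (RLE 1 and 3, total count 1 and 36; 1 to 27 lower without 1 library; 1 lower without liver input 3 or 5 or brown fat IP 4), against muscle 1 and 7 (RLE 5 and 4, total count 0 and 21; 0 to 16 lower without 1 library, and 0 in both directions without muscle IP 1 or 2), and against hypothalamus 3 and 80 (RLE 4 and 3, total count 3 and 10; 64 to 110 lower without 1 library). With the mouse as a replicate block these were 3 and 27, 0 and 10, and 1 and 82. Brown fat IP 5 and brown fat input 5 come from different mice, so these libraries form no pair in that fit. Liver minus hypothalamus for miR-1a-3p ranged from -0.41 to 4.69 without 1 library.

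Under the mouse block 0 of the ratios were called. The ratio difference of miR-125a-5p to let-7e-5p ranged from -0.12 to 0.39 without 1 library. The Spearman value for uracil was 0.087 at 10 CPM, 0.038 per seed and 0.060 without let-7; for C 0.333 per seed and 0.416 without let-7; for G 0.241 at 10 CPM and 0.196 without let-7; for GC share 0.518 per seed and 0.518 without let-7; for length -0.022 at 10 CPM and -0.023 per seed. The fitted median of the miR-15/16 list relative to all entries was -5.46 with RLE and -4.92 with total count, and rests on entries with 0 counts. That of the Dlk1-Dio3 list was 0.020 without liver IP 4.

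Depth limits the lower end: 19 tested entries had 0 counts in the IPs and 17 had 1 to 3, so their falls have bounds or wide intervals only. These entries passed the filter mainly through their inputs and could hardly be called higher, so their direction alone is no support.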
